A study of Rattus norvegicus with 8 samples.

Results

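Glutathione, thioredoxin and antioxidant genes were followed as a fixed list of 32 genes in granulosa cells of the rat ovary, which nurse the oocyte and make estrogen. A gene was taken as a member when the platform annotation gave it a probe set that named no other gene, which held for 30 of the 32 among 14217 named genes in all. Gsta2 and Prdx1 were the exceptions, since their only probe sets also named a relative. Of the 30 members, 28 were measured, meaning that a probe set lay above its array's median on at least 2 of the 8 arrays. Sod3, the extracellular superoxide dismutase, and Gsr, the glutathione reductase, did not pass. Their signals ran from 29.1 to 538 and from 62.4 to 506, with medians of 209 and 268.

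Total RNA had been hybridised to one-colour Affymetrix arrays of the rat genome, 1 array per sample. Per the series' design text, all rats were immature and were given eCG, a hormone that makes ovarian follicles grow. Either an antibody to eCG, which causes follicular atresia, or pre-immune serum followed 24 h later. In the serum group 30 to 50% of oocytes gave term development after embryo transfer, against 0% in the antibody group. The 8 array labels carry a number only and name no treatment, so no array could be placed in a group and no comparison of the treatments was made. The sources used here do not give strain, age in days or whether animals were pooled, and nothing states that the arrays came from separate animals. What follows is each array's value and the spread over arrays. Eight-value series follow rising label numbers, 2074 and 2076 first and then 2194, 2195, 2196, 2197, 2198 and 2199.

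Glutathione is a small thiol that granulosa cells make from glutamate, cysteine and glycine. Glutathione peroxidases spend it to reduce peroxides, and glutathione transferases couple it to reactive molecules, including products of lipid peroxidation. Superoxide dismutases turn superoxide into hydrogen peroxide, which catalase, peroxidases and peroxiredoxins remove, and thioredoxin with its reductase recharges the peroxiredoxins. Steroid synthesis in follicle cells is a known source of such oxidants. Many of these genes are known targets of the transcription factor NRF2, which binds the antioxidant response element.

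Levels are scaled signals: the deposited signal after bringing each array to a common median of bright probe sets. Spread is given as an inner range: the second highest of the 8 arrays divided by the second lowest, taken after values under the 40th percentile of an array were raised to it (the floor, 273 to 471). Arrays correlated pairwise between 0.766 and 0.863 over all probe sets on the log2 scale, and array 2195 had no correlation above 0.791 with any other. Of 10 granulosa markers 8 were measured, with a summed signal of 254720.0 to 316056 over arrays. Among markers of other cells, 8 of 9 theca and stromal, 6 of 9 macrophage and leukocyte, 2 of 7 endothelial and 2 of 6 oocyte genes were measured. Their summed signals ran from 3448 to 7963, from 5573 to 9416, from 273 to 1964 and from 259 to 1878. The leukocyte gene Ptprc, the oocyte gene Zp1 and the granulosa gene Esr2 lay at the floor on all 8 arrays. Of 6 erythroid genes 3 were measured, and their sum reached 48924 on array 2074 and 13542 on array 2076, whereas elsewhere it was 4280.4 to 10816. In bulk RNA, fewer cells of a type and less RNA per cell cannot be told apart.

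Inner ranges of the 28 measured members ran from 1.22-fold to 3.44-fold around a median of 1.64-fold, and the median of all 10513 measured genes was 1.71-fold. At least 2-fold was reached by 7 of the 28 members, against 29.8% of all measured genes, so the share lay near the background at this floor. With no floor it was again 7 of 28, against 39.6% of all genes, and the median was 1.64-fold against 1.80-fold. These 7 were Gclm, Gsta1, Gpx4, Prdx6, Sod2, Gstm2 and Gstm5. They came from 6 of the 11 classes into which the genes were sorted by function. Catalase, thioredoxin, haem oxygenase with quinone reductase, and the pi, omega and microsomal transferases had none. Each array used is a single sample, and the small number of arrays limits the precision of every value.

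**Figure D1:**
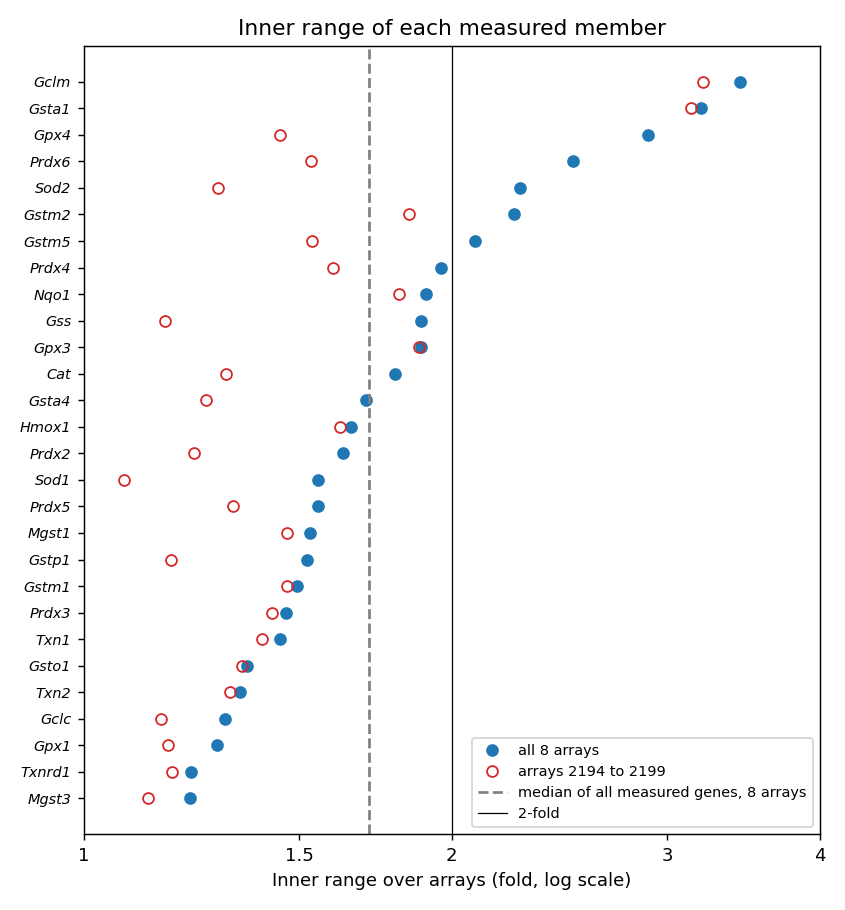
Inner range over arrays in fold, on a log axis, for each of the 28 measured members, with all 8 arrays (filled) and with arrays 2194 to 2199 alone (open); the dashed line is the median of all measured genes, 1.71-fold, and the solid line is 2-fold. Gclm (3.44-fold) and Gsta1 (3.20-fold) are widest and stay above 2-fold in the open symbols, whereas Gpx4, Prdx6 and Sod2 do not.

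The members differed in which arrays held their high and low values. Array 2074 was the highest of the 8 for 8 of 28 members, against 14.2% of all measured genes, and it was the lowest for 0, although it was so for 15.6% of genes. Array 2194 was the lowest for 7 of 28, against 7.70% of genes. Array 2195 was the highest for 2 of 28, although it was so for 23.7% of genes. All these ranks were taken after the floor, which was 471 on array 2195 and 273 to 384 on the others. Weak genes at the floor can therefore rank highest on array 2195 by construction. Only 3 of the 28 members were at the floor on any array, so the shares of all genes are not a like background here. These arrays were singled out after their values were seen.

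**Figure D2:**
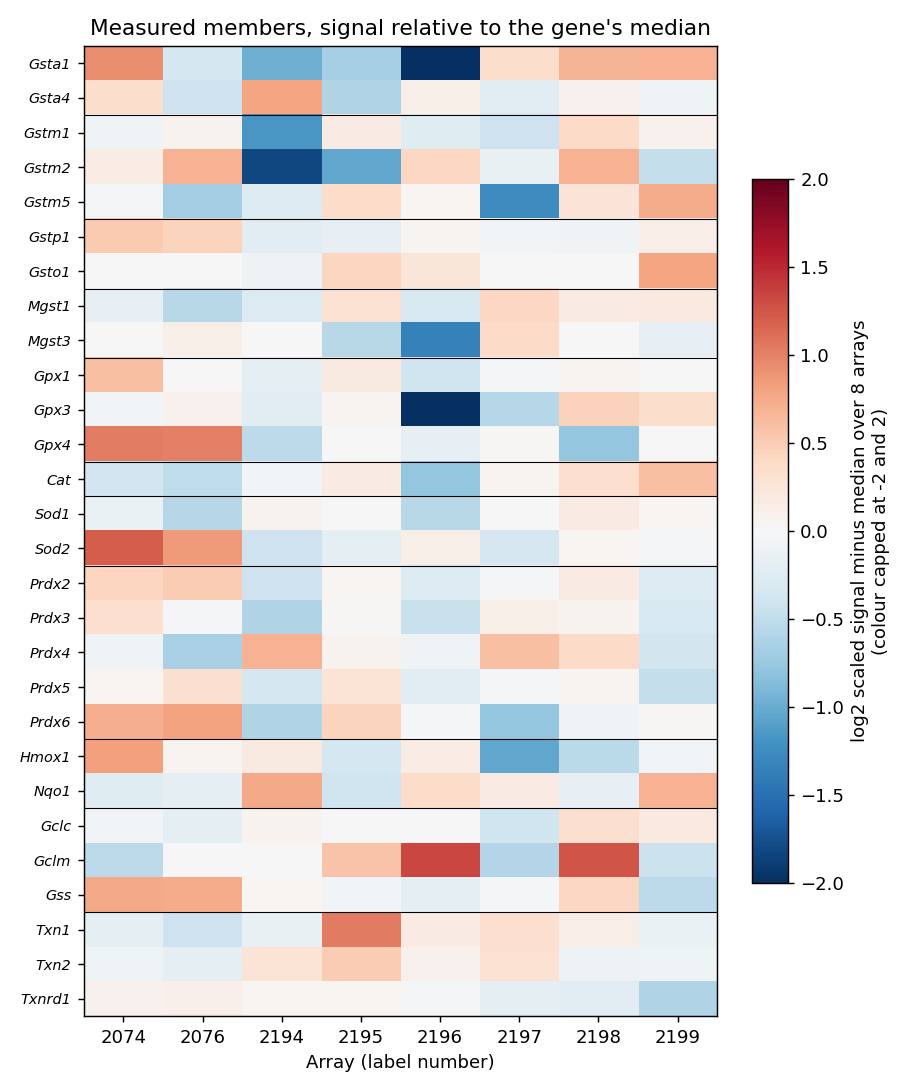
Scaled signal of the 28 measured members (rows, grouped by class with lines between) on the 8 arrays (columns), as log2 difference from the gene's median, with the colour capped 2 units either side of the median. Red cells for Gpx4, Sod2, Prdx6 and Gss gather in arrays 2074 and 2076, and those for Gclm in arrays 2196 and 2198.

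On arrays 2074 and 2076 a set of 7 members was higher than on every one of the other 6 arrays, and 1 member was lower. The 7 were Gpx4, Sod2, Prdx6, Gss, Prdx2, Gstp1 and Txnrd1, 7 of 28 measured members against 13.6% of all measured genes. Txn1 was the member below, 1 of 28 against 14.5% of genes. The labels do not say what the numbers stand for, and whether these arrays differ in treatment, animals or handling cannot be told apart. Without further scaling of the deposited values the same 7 lay above and 0 below, and with quantile normalization Prdx3 joined them and again 0 lay below, so the low position of Txn1 rests on the scaling. With the mean of both probe sets Txnrd1 was no longer above.

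The markers of cell types were read on the same arrays. Both arrays lay above the other 6 in 2 of 8 measured granulosa markers, 1 of 8 theca and stromal, 1 of 3 erythroid and 0 of the leukocyte, endothelial and oocyte markers, against the 13.6% of all measured genes. Both lay below in 1 of 6 leukocyte markers and 0 of the others, against 14.5% of genes. The granulosa markers did not move together. Foxl2, a granulosa transcription factor, was at 10432 and 8098 against 3572 to 6927, and Inha, the inhibin alpha subunit, at 90530.1 and 69907 against 26724 to 54083. Cyp19a1, which encodes aromatase, was at 6422 and 987 against 3582 to 20564, lowest on array 2076. Inhba, an activin subunit, was at 54527 and 19181 against 23347 to 72058. The summed granulosa signal was 315717 and 260900.0 against 254720.0 to 316056, and the leukocyte and stromal sums also lay within the range of the other arrays. The erythroid sum did not, at 48924 and 13542 against 4280.4 to 10816. The part of cell makeup in the 8 members' values was not tested.

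**Figure D3:**
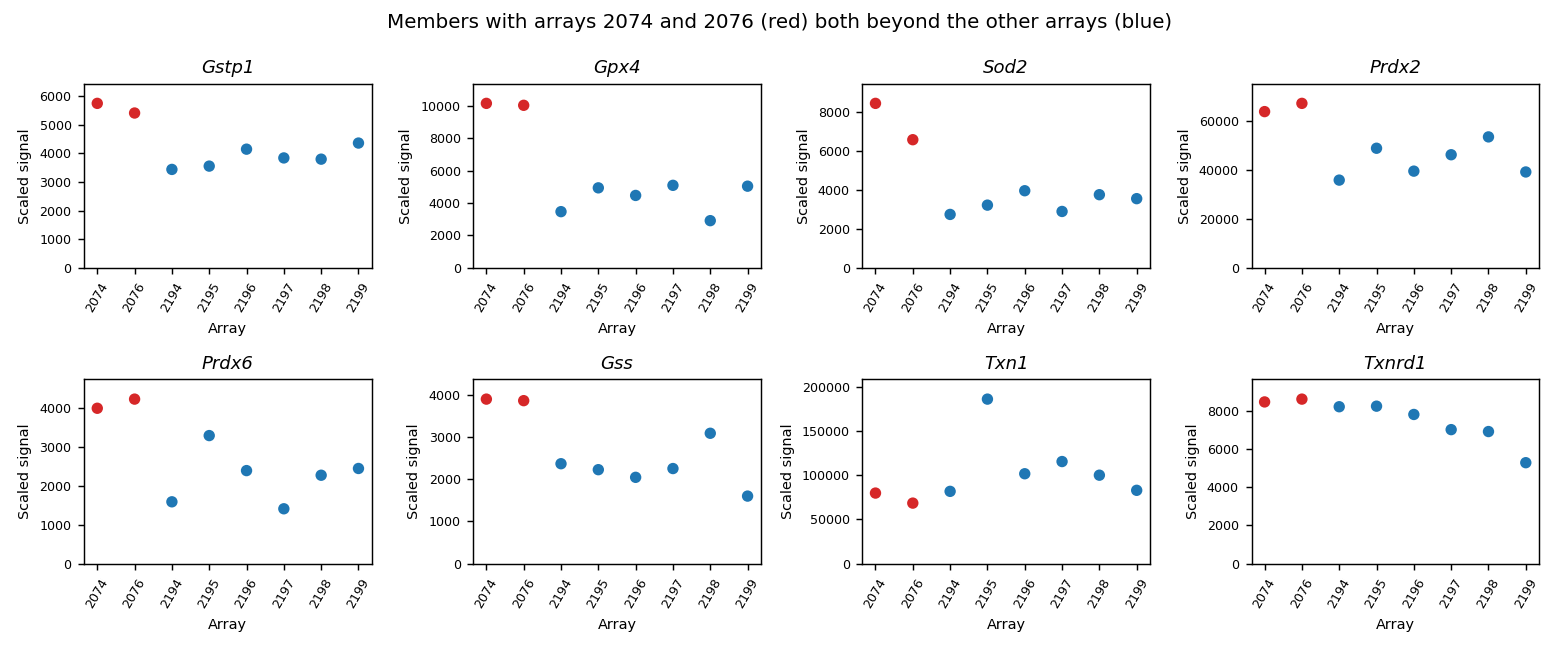
Scaled signal on each of the 8 arrays, on linear axes from 0, for the 8 members whose values on arrays 2074 and 2076 (red) both lie beyond those of the other 6 arrays (blue) with the scaling used here. Gpx4 lies at 10159 and 10039.6 on the red arrays against 2913 to 5096 on the blue, and Txnrd1 at 8454 and 8601 against 5275 to 8232.

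The DNA just upstream of the start is shown for Gstp1, Sod2, Gclm and Txnrd1 because it holds the core letters of the antioxidant response element. Gstm5, whose window has 2 matches, is not shown. Neither Gstm5 nor Gclm was higher on both arrays 2074 and 2076. Gpx4, which was high on arrays 2074 and 2076, is shown as a member with none in its window. The motif searched on both strands was TGACNNNGC, which reads GCNNNGTCA on the other strand, in the 250 bases before each start. It was found in 10.1% of 33469 promoter windows of the same length and in 6 of the 31 windows of the listed genes. By gene, 5 of the 26 measured members with a window held it in at least 1 window, namely Gstm5, Gclm, Gstp1, Sod2 and Txnrd1. The remaining window with a match was that of Prdx1, which has only a shared probe set, and it is not shown. Of the 7 members higher on arrays 2074 and 2076, 6 had a window and 3 of these held it. These counts are per gene, and genes with several starts have several windows. The 10.1% is per window, so it is not a like background for them. The match in Gstp1 also contains TGACTCA, the letters of an AP-1 site, as does that in Prdx1 on the other strand. Sequences are from RefSeq, build GRCr8, written 5′ to 3′ on the strand of the gene, with matches in capitals. A match describes letters only. The Gstp1 window is chr1:210769706-210769955 on the minus strand, that of Sod2 chr1:50050169-50050418 (minus), that of Gclm chr2:213031885-213032134 (plus), that of Txnrd1 chr7:22755905-22756154 (minus) and that of Gpx4 chr7:10303630-10303879 (minus). Txnrd1 has 2 listed starts, of which the one with the match is shown, and the first of 3 is shown for Gpx4.
Gstp1: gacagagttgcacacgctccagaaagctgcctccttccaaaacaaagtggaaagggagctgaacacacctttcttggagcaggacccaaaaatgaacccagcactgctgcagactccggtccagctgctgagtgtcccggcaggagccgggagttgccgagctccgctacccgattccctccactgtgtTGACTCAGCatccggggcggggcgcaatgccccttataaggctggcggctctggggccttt
Sod2: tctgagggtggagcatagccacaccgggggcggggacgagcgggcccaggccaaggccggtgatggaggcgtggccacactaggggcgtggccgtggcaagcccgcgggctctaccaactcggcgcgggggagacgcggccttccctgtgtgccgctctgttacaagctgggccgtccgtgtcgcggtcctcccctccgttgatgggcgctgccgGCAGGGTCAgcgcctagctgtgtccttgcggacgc
Gclm: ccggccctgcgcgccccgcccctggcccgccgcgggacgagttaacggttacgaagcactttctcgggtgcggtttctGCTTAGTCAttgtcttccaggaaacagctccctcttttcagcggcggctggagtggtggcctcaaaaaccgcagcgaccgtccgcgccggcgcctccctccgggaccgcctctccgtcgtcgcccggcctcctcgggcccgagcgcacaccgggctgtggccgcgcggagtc
Txnrd1: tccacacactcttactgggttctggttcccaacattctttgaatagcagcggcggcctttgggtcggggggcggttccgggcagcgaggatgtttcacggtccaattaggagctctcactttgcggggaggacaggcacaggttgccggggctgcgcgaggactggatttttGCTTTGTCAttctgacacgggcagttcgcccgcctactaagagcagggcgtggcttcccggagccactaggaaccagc
Gpx4: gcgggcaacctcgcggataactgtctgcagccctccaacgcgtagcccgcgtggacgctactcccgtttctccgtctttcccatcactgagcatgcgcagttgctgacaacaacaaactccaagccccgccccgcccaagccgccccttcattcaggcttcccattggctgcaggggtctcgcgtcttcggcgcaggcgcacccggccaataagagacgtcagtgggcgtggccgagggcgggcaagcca
The matches begin 61 bases before the start in Gstp1, 35 in Sod2, 172 in Gclm and 78 in Txnrd1.

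Among all measured members Gclm had the widest inner range over the 8 arrays, whereas by full range Gsta1, Gpx3 and Gstm5 were wider. It encodes the modifier subunit of glutamate-cysteine ligase, the rate-limiting enzyme of glutathione synthesis. Its signals were 1508, 2157, 2169.9, 3220.2, 5477, 1448, 5186 and 1609 (median 2163). Arrays 2196 and 2198 stood high, array 2195 was intermediate and the other 5 stayed at or below 2169.9. The inner range of 3.44-fold was larger than in 97.1% of measured genes. It was 2.13-fold without array 2196 and 2.11-fold without array 2198, under the values of Gsta1 and Gpx4 in the same settings. Gclc, the catalytic subunit of the same enzyme, was much steadier: 1706, 1559.6, 1875, 1784, 1773, 1346, 2231 and 2033, an inner range of 1.30-fold. Array 2198 was the highest in Gclc and array 2196 lay near its median of 1779. A second probe set of Gclc was at the floor on 5 arrays, with an inner range of at least 1.65-fold. Gss, glutathione synthetase, which adds glycine, was at 3899 and 3862 on arrays 2074 and 2076, with 1599 to 3089 elsewhere (median 2309.6). Its inner range was 1.89-fold over 8 arrays and 1.17-fold over arrays 2194 to 2199. The 2 arrays that were high for Gss were not the 2 that were high for Gclm.

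Both subunits of the ligase were compared array by array, as were other pairs tied by biochemistry. Of 8 pairs fixed, 6 had both genes measured. Over the 8 arrays Gclc and Gclm correlated with Pearson's r = 0.50 (exact permutation p = 0.211, two-sided; Benjamini-Hochberg adjusted over the 6 pairs, 0.656) and Spearman's rho = 0.52 (exact permutation p = 0.197, adjusted 0.590). Among all measured genes, 13.6% had an r with Gclc at least as high. Without arrays 2197 and 2198, the farthest from the median of Gclc, r was -0.13. These are the lowest and highest arrays for Gclc, and leaving out both ends can lower r by itself. With any 1 array left out r stayed positive, at 0.23 to 0.70. Over arrays 2194 to 2199 alone r was 0.46 (exact permutation p = 0.386, adjusted 0.654). The ligase subunits did not reach the threshold at this number of arrays, which does not show that they are unrelated.

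The other pairs gave no relation past the threshold of 0.05 either. Thioredoxin and its reductase, Txn1 and Txnrd1, had r = 0.05 (exact permutation p = 0.895) and rho = -0.43 (exact permutation p = 0.299). Without arrays 2076 and 2195 r was -0.06, and over arrays 2194 to 2199 it was 0.43. NRF2 targets paired with each other had r = -0.17 for Gclm with Nqo1, -0.11 for Gclm with Hmox1 and -0.49 for Nqo1 with Txnrd1 (exact permutation p = 0.670, 0.791 and 0.219). Their rho values were 0.05, 0.05 and -0.57 (exact permutation p = 0.935, 0.935 and 0.151). Leaving out the 2 arrays farthest in the first gene gave r = -0.33, -0.04 and -0.43, and arrays 2194 to 2199 alone gave -0.44, 0.27 and -0.31. With the mean of both Txnrd1 probe sets in place of the brighter, Nqo1 and Txnrd1 had r = -0.84 (exact permutation p = 0.00603, adjusted 0.0362), so the call for that pair depends on how the probe sets are combined. Gsta1 and Gsta4 had r = -0.07 (exact permutation p = 0.870) and rho = 0.0 (exact permutation p = 1.0). They had r = 0.94 (exact permutation p = 0.00556, not adjusted) once arrays 2194 and 2196 were left out, and -0.25 over arrays 2194 to 2199. Those 2 arrays were left out for their Gsta1 values, and the p-value does not allow for that choice. In the same setting the other pairs had exact permutation p = 0.381 to 0.936. Adjusted over the 6 pairs, the Pearson p-values over 8 arrays were 0.656 to 0.895, the Spearman p-values 0.590 to 1.0, and those over arrays 2194 to 2199 all 0.654.

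**Figure D4:**
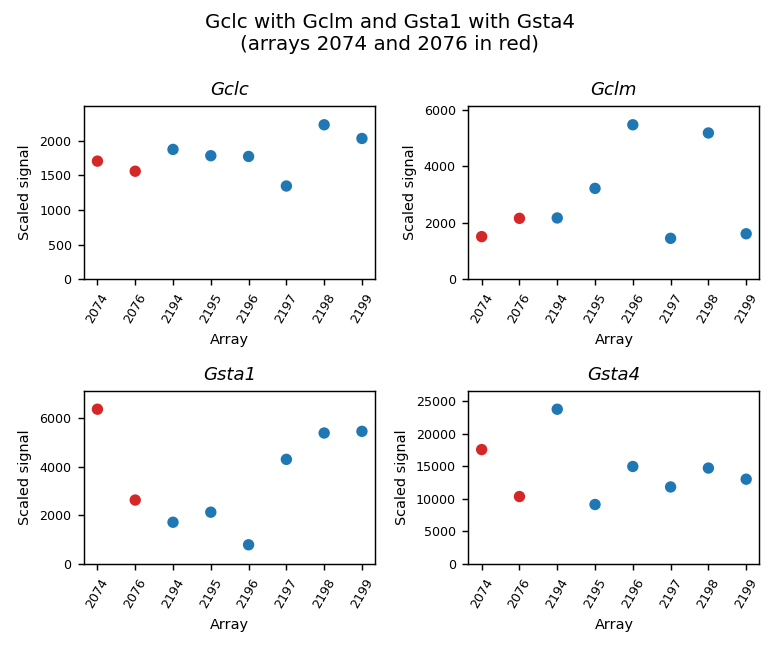
Scaled signal on each of the 8 arrays, on linear axes from 0, for Gclc and Gclm, the subunits of glutamate-cysteine ligase, and for the alpha transferases Gsta1 and Gsta4, with arrays 2074 and 2076 in red. Gclm rises to 5477 and 5186 on arrays 2196 and 2198 while Gclc stays between 1346 and 2231, and array 2194 is low for Gsta1 and highest for Gsta4.

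Glutathione transferases of the alpha class couple glutathione to lipid oxidation products and are expressed in steroid-making tissue. Gsta1 gave 6371, 2622, 1705, 2120.3, 775, 4301, 5389 and 5458 (median 3462). Array 2196 was by far the lowest, arrays 2074, 2197, 2198 and 2199 were high and the other 3 lay between. Its inner range was 3.20-fold, larger than in 96.1% of genes, and stayed between 2.59-fold and 3.20-fold when any single array was left out. Gsta4, which prefers the lipid aldehyde 4-hydroxynonenal, gave 17553, 10323, 23771, 9095, 14952, 11799, 14708 and 12992 (median 13850.0) and an inner range of 1.70-fold. Its highest array, 2194, was the second lowest for Gsta1.

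The mu class, which also conjugates reactive molecules to glutathione, had 1 gene at the floor on some arrays. Gstm2 gave 557, 813, 142, 244, 667, 450.3, 809 and 360.1 (median 504), and arrays 2194 and 2195 were at the floor, so its inner range is at least 2.25-fold. That lower bound came down to 1.78 to 1.85-fold without array 2076, 2194, 2198 or 2199, which does not show a range under 2-fold. Gstm5 gave 828, 531, 709, 1109, 884, 356, 1018 and 1429 (median 856), a 2.09-fold inner range that came down to 1.56-fold without array 2076 or 2197 and 1.91 to 1.92-fold without array 2195 or 2199. Array 2076 was thus the second lowest for Gstm5 and the highest for Gstm2. Gstm1 had the smallest inner range of the class over the 8 arrays, 1.49-fold, with 947, 1035, 442, 1106, 838, 741, 1288 and 1047 (median 991). Array 2194 was the lowest for Gstm1 and Gstm2 alike. Transferase genes of a class resemble each other, and whether a probe set also detects a relative was not tested.

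The remaining transferases had inner ranges under 2-fold. Gstp1, the pi class enzyme, was at 5748 and 5411 on arrays 2074 and 2076, with 3439 to 4361 elsewhere (median 3994), an inner range of 1.52-fold. Gsto1, an omega class enzyme that reduces dehydroascorbate, gave 8398, 8418, 7854, 11327, 9918, 8407, 8323 and 14469 (median 8413). Arrays 2195 and 2199 stood above the rest, and the inner range was 1.36-fold. Mgst1, the membrane-bound transferase of microsomes and mitochondria, ran from 21892 on array 2076 to 42814 on array 2197 around a median of 32278, with an inner range of 1.53-fold. Mgst3, another membrane-bound form, gave 509.9, 554, 509.8, 348, 199.8, 666, 513 and 453 (median 509.9) and was at the floor on arrays 2195 and 2196. Its inner range is at least 1.22-fold, and it was 1.59-fold with no floor and 1.85-fold with quantile normalization.

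Glutathione peroxidases behaved differently from one another. Gpx4, the selenoenzyme that reduces lipid peroxides within membranes and guards against ferroptosis, gave 10159, 10039.6, 3469, 4939.8, 4471, 5096, 2913 and 5043 (median 4991). Arrays 2074 and 2076 stood above all others with no overlap, and their median was 2.15 times that of the other 6. The inner range of 2.89-fold was larger than in 94.0% of genes but came down to 1.47-fold when array 2074 or array 2076 was left out. A second probe set of Gpx4 was at the floor on 7 arrays and gave no measure. Gpx1, the cytosolic selenoenzyme, gave 15883, 10326, 9164, 11780.0, 7884, 10142, 10816 and 10507 (median 10416) and an inner range of 1.29-fold, with only array 2074 clearly high. Gpx3, the secreted form, ran from 214 on array 2196, where it was at the floor, to 1391 on array 2198 (median 1009.9), with an inner range of 1.89-fold. Catalase, encoded by Cat, gave 2599, 2389.6, 3263, 3824, 1991, 3550.0, 4297 and 5145 (median 3406). It was low on arrays 2074, 2076 and 2196, and the inner range was 1.80-fold.

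Of the superoxide dismutases, Sod2, the mitochondrial manganese enzyme, gave 8438, 6573, 2739, 3216, 3955, 2892, 3752 and 3548 (median 3650.1). Arrays 2074 and 2076 were again separate from the rest, by a ratio of medians of 2.20, and the inner range of 2.27-fold was 1.36-fold without either of these arrays. Sod1, the cytosolic copper-zinc enzyme, gave 42916, 31702, 49616, 46818, 31894, 47184, 52751 and 48459 (median 47001). Its low arrays were 2076 and 2196, and its inner range was 1.56-fold over 8 arrays and 1.08-fold over arrays 2194 to 2199. Sod2 was highest on array 2074 and Sod1 on array 2198.

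Peroxiredoxins, which reduce hydrogen peroxide with thioredoxin or glutathione as donor, spread from 1.46-fold to 2.52-fold. Prdx6, the member that uses glutathione, gave 3991, 4226, 1587, 3289, 2389, 1408, 2269.9 and 2444 (median 2416). Arrays 2074 and 2076 were the highest, with array 2195 closest to them. The inner range was 2.52-fold and came down to 1.76-fold without array 2194 or 2197. Prdx2, a cytosolic form abundant in red cells, gave 63749 and 67113 on that pair and 35792 to 53428 elsewhere (median 47471), an inner range of 1.63-fold. Prdx3, the mitochondrial form, gave 21265, 16552, 11154, 17173, 12426, 18191, 17735 and 13599 (median 16862) and had the smallest inner range of them over the 8 arrays, 1.46-fold. Prdx5 ran from 18298 on array 2199 to 31749 on array 2076 (median 25478, 1.55-fold), and Prdx4, the form of the endoplasmic reticulum, from 1929 on array 2076 to 4896 on array 2194 (median 3026, 1.96-fold). Array 2076 was thus the highest for Prdx2, Prdx5 and Prdx6 and the lowest for Prdx4.

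Red cell transcripts were highest on array 2074. Hbb, a beta globin gene, was at 45704 there, at 12573 on array 2076 and between 3709 and 9666 elsewhere, and Alas2, the erythroid haem synthesis enzyme, gave 3193, 645 and 88.3 to 669. Slc4a1, the red cell anion exchanger, was at 26.6 on array 2074, below the floor, and Ahsp was below the filter. Prdx2, Gpx1 and Cat are abundant proteins of red cells. Prdx2 and Gpx1 were high on array 2074 and Cat was not. Prdx2 was higher still on array 2076, at 67113 against 63749 on array 2074, although Hbb and Alas2 were lower there. The part of red cells in these values was not tested.

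The stress-inducible enzymes Hmox1 and Nqo1 did not share their high arrays. Hmox1, haem oxygenase 1, gave 3041, 1804, 1963, 1358, 1921, 845, 1186 and 1655 (median 1729.5), highest on array 2074 and lowest on array 2197, with an inner range of 1.65-fold. Nqo1, the quinone reductase, gave 1178, 1210.0, 2363, 1051, 1785, 1552, 1245 and 2244 (median 1399). It was highest on arrays 2194 and 2199 and had an inner range of 1.91-fold.

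The thioredoxin system had a median inner range of 1.34-fold, and each of its 3 members was under 1.5-fold. Txn1, cytosolic thioredoxin, gave 79966, 68576, 81912, 186567, 101898, 115734, 100256 and 83097 (median 91677). Array 2195 stood far above the others, and the inner range, which leaves that array out as the highest, was 1.45-fold against a full range of 2.72-fold. Txn2, the mitochondrial thioredoxin, ran from 4871 on array 2076 to 7992 on array 2195 (median 5609.7, 1.34-fold). Both thioredoxins were thus highest on array 2195 and lowest on array 2076. Txnrd1, the selenoenzyme that reduces Txn1, gave 8454, 8601, 8202, 8232, 7798, 7005, 6905 and 5275 (median 8000.2) and an inner range of 1.22-fold. It was lowest on array 2199, and arrays 2074 and 2076 were only just above array 2195. A second probe set of Txnrd1, at the floor on 2 arrays, had at least 2.72-fold and also its lowest value on array 2199, 26.3.

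Other genes of glutathione and redox metabolism were taken from a list of 78, of which 62 were measured. Of the 62, 16 (25.8%) varied by 2-fold or more, against the 29.8% of all genes given above, and their median was 1.66-fold. Of the other transferases 5 of 9 reached it, led by Gstz1, the zeta class enzyme of tyrosine breakdown, at least 4.21-fold, Gstm7 at 3.02-fold and Gstt1 at 2.60-fold. Gstz1 was at 53.2 on array 2195 and 1254 on array 2199, and without array 2194, 2196, 2197 or 2199 its inner range was at least 2.65 to 2.67-fold. Gstt1 had 1.94 to 1.95-fold without array 2074 or 2197. The remaining transferases past 2-fold were Mgst2 (2.05-fold) and Gstt3 (2.03-fold). Gstt3 had 1.53 to 1.54-fold without array 2197 or 2199 and 1.80-fold without array 2076 or 2194. Mgst2, a microsomal form, was low on arrays 2074 and 2076, at 22449.8 and 23617 against 36816 to 52976, and had 1.31-fold without either. Among other peroxidases, thioredoxin-fold proteins and reductases it was 2 of 21. These were Srxn1, sulfiredoxin, which restores over-oxidised peroxiredoxins, at 2.47-fold, and Glrx, glutaredoxin, at 2.07-fold. Srxn1 reached 13037 on array 2198 against 2028 to 6278 elsewhere, and Glrx had 1.64 to 1.65-fold without array 2076 or 2195.

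In cysteine supply and glutathione turnover 4 of 13 reached 2-fold, among them Oplah at least 3.18-fold and Ggt7 at 2.18-fold. Ggt1, which begins the breakdown of extracellular glutathione, had at least 2.43-fold. After the floor, each of these gave a value under 2-fold once 1 of certain arrays was left out. Oplah and Ggt1 had signals at the floor, so their values are lower bounds and do not show a range under 2-fold. Oplah had at least 1.92-fold without array 2074 or 2195. Ggt1 had at least 1.94 to 1.95-fold without array 2076 or 2199, and Ggt7 had 1.38-fold without array 2074 or 2199. The last of the 4 was Cbs, at the floor on 5 arrays, with at least 2.04-fold. Its lower bound was 1.43 to 1.44-fold without array 2195 or 2198 and 1.97 to 1.98-fold without array 2076 or 2197. Slc7a11, the cystine carrier subunit, was not among them and had 1.63-fold. Of the NADPH-supplying enzymes 1 of 7, Nnt, the mitochondrial transhydrogenase, had 2.05-fold, and 1.28 to 1.30-fold without array 2195 or 2076 (1.84 to 1.85-fold without 2074 or 2199). Among iron and metal binding genes 4 of 5 reached it. The metallothionein gene Mt1 had 4.36-fold, with 7644 and 6552 on arrays 2195 and 2196 and 1463 and 1502 on arrays 2074 and 2199, and 2.19-fold without array 2074 or 2199. Slc40a1, the iron exporter, had 2.62-fold (1.77-fold without array 2076 or 2196) and Mt2A had 2.32-fold (1.76 to 1.89-fold without array 2076, 2194, 2195 or 2197), and Mt3 had 2.04-fold (1.49 to 1.76-fold without array 2074, 2194, 2195 or 2198).

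Among regulators of the NRF2 pathway 0 of 7 reached 2-fold, against 29.8% of all measured genes, and the median was 1.48-fold. The widest, Sqstm1 at 1.96-fold and Maff at 1.82-fold, were above the 1.71-fold median of all measured genes. Nfe2l2, which encodes NRF2, had an inner range of 1.45-fold and Keap1, its inhibitor, 1.48-fold. Over all 62 measured genes of the wider list, arrays 2074 and 2076 were both above the other 6 in 12, against 13.6% of all measured genes. They were both below in 2, against 14.5% of genes. Both were above in 0 of 9 other transferases and 4 of 21 other peroxidases, thioredoxin-fold proteins and reductases. In turnover, NADPH supply and metal binding it was 1 of 13, 2 of 7 and 1 of 5. The regulators had the largest share, 4 of 7. These were the small MAF genes Mafg, Mafk and Maff, whose products pair with NRF2, and Sqstm1, which encodes the KEAP1-binding receptor p62, and they were named after their values were seen, as were Nfe2l2, Keap1, Slc7a11 and the cell markers above. Sqstm1 gave 10754 and 7028 on that pair and 3542 to 5558 elsewhere.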

How the data were processed

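RNA of rat granulosa cells was measured on 8 one-colour Affymetrix arrays. The authors deposited signal intensity on a linear scale, which per the submitters' processing notes came from MAS5, with no version stated there. Trimmed by 2% at both ends, the arrays' means were 1500.5 to 1500.6, so the deposited values had been scaled. Detection calls were not used here.

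Of 31099 probe sets, 57 controls and 436 naming several genes were left out, and 9780 were unnamed. The gene table of GRCr8 held 20758 of the 20826 singly named identifiers and changed 0 symbols. Signals were put on the log2 scale, arrays were scaled to a common median over the probe sets that exceeded the array median everywhere, and values under the 40th percentile were raised to it. The brightest passing probe set stood for a gene, and printed signals are before the floor. Members, lists, pairs and tests were chosen with earlier results of these data known. Every measured member was to be named with its median and inner range, with signals on every array for those of at least 2-fold, the steadiest of each class and the genes of fixed pairs. Of the other pathway genes, the rule named at most the 3 widest per list with at least 2-fold; further ones were named after their values were seen.

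Correlations over arrays were tested with an exact two-sided permutation test over all pairings. No test between treatments was possible. Alternatives were quantile normalization, no further scaling, a lower floor (25th percentile), no floor, a stricter filter or none, the mean of probe sets, the next probe set, the full range, each array left out, and arrays 2194 to 2199 alone. The steps were tested on simulated data. Python 3.11.15, SciPy 1.17.1 and pandas 2.3.3 were used.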

Additional observations from a re-analysis of the deposited data

Results flagged for a closer look

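Of 28 measured members, 2 had an array far from the other 7, by Dixon's ratio of the gap to the whole range on the log2 scale after the floor, past the 95% critical value for 8 values. For normally distributed values chance alone gives about 1 in 20 such sets of arrays. The share over all measured genes was not computed, so the count cannot be called more or less than the background. Gpx3, the secreted glutathione peroxidase, was low on array 2196 with a ratio of 0.536. There it was at the floor, with 214 against 679 to 1391 on the other 7 arrays. Txnrd1, thioredoxin reductase, was low on array 2199 with a ratio of 0.551, at 5275 against 6905 to 8601. The part of any technical difference between arrays in these values was not tested.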

How the results depend on the processing

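The count of members with at least 2-fold, 7 of 28, was 6 with no further scaling or quantile normalization (29.3% and 27.7% of all genes), 7 with a lower floor or none (39.6%) and 7 with the mean of probe sets (26.0%). It was 7 of 30 with no filter (22.2%) and 5 of 23 with the stricter one (19.3%). It was 18 with the full range (71.4% of all genes), 2 over arrays 2194 to 2199 alone (12.0% of all genes) and 3 to 7 when 1 array was left out (18.7 to 25.1% of all genes), with 3 without array 2076 (18.7%). Gclm and Gsta1 stayed at or above 2-fold in every one of these settings. Fewer arrays narrow an inner range by construction. The median inner range, 1.64-fold, was 1.72-fold with quantile normalization, 2.43-fold with the full range, 1.37-fold over arrays 2194 to 2199, and 1.48 to 1.59-fold when 1 array was left out. The count with arrays 2074 and 2076 both beyond the others, 8, was 7 to 8 with other scalings, floors, filters and the mean of probe sets, and 9 without array 2195, an alternative added after seeing the data, where Nqo1 joined Txn1 below. Quantile normalization lowered the median of measured genes on array 2195 by -0.13 on the log2 scale. Pairs past the threshold numbered 0, and 1 with the mean of probe sets (Nqo1 and Txnrd1). Unadjusted, 0 pairs had p under 0.05 in the primary setting. Signs turned in 11 of 84 pair settings. For Txn1 with Txnrd1 r was -0.11 without scaling, -0.12 with quantile normalization, and -0.28 and -0.29 without arrays 2195 and 2199 (leaving 1 array out, -0.29 to 0.24). Gclm with Hmox1 had 0.21 and 0.0854 without arrays 2074 and 2198 and 0.27 over arrays 2194 to 2199 (-0.59 to 0.21 leaving 1 out), and Gclm with Nqo1 had 0.000322 without array 2199 (-0.38 to 0.000322). Gsta1 with Gsta4 had 0.0217 with quantile normalization, 0.23 without array 2194 and 0.0165 without array 2196 (-0.23 to 0.23). The causes were not tested. No paired analysis was possible because the labels put no array in a group. Weak signals, such as those of Gstm2, Mgst3, Gsr and Sod3, lie near background, which limits their order over arrays.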

Other observations

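The probe set shared by Prdx1 and its relative Prdx1l1, left out above because it names more than 1 gene, was among the steadiest, with signals of 26220.1, 26242, 28723, 30163, 31763, 28608, 32962 and 22504 and an inner range of 1.21-fold. Prdx1 is a cytosolic peroxiredoxin, and the share of each gene in the signal is unknown. The probe set shared by the alpha transferases Gsta2 and Gsta5 gave 2422, 2906, 1668, 3410, 2785, 2998, 3725 and 1562, an inner range of 2.04-fold. It was lowest on arrays 2194 and 2199. Gsta1 was low on array 2194 as well but among its highest on array 2199.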
